A study of Mus musculus with 3 samples.

Results

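The genes described here are 10 members of the YAP, TAZ, TEAD and Vgll circuit, the transcriptional end of the Hippo pathway. They were chosen by symbol, and all 10 were found among the 15554 rows of the expression table. NIH3T3, an established line of mouse embryonic fibroblasts, was grown to near confluence, kept in serum-free medium for 24 h and then for a further 24 h without stimulation (CTRL), with 100 ng/mL of GDF15 protein or with 4 ng/mL of TGF-β protein. The study asked whether GDF15, a distant member of the TGF-β superfamily, acts on fibroblasts as TGF-β does. RNA was pooled within each treatment and 1 stranded mRNA library per treatment was sequenced, 3 libraries in all. The line is a single immortalised mouse line, and no other cell type was cultured with it.

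YAP (gene *Yap1*) and TAZ (gene *Wwtr1*) are coactivators without a DNA-binding domain of their own. When the kinases of the Hippo pathway are active they phosphorylate both proteins, which are then held in the cytoplasm by 14-3-3 proteins or degraded, and when the kinases are quiet YAP and TAZ enter the nucleus and bind TEAD transcription factors. Vgll proteins bind the same TEAD factors, so that the cofactors can compete for them, and in fibroblasts this circuit is known for responding to stiffness, cell spreading and matrix. Most of this control acts on the proteins, which RNA levels do not show.

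The values are FPKM, fragments counted on a gene per length of its exons and per depth of the library. A change is the difference of log2(FPKM + 1) between 2 libraries, and a gene was counted as changed past 2-fold when this difference was over 1 in absolute value, the fold criterion of the study. With 1 library per treatment these libraries hold no replicate. No test between treatments was possible in them, and no difference has a replicate check within them. The paper also reports qRT-PCR of unpooled RNA samples for extracellular matrix genes, which is not part of these values. As a scale for each change, the local spread is given, a scaled median absolute deviation taken over genes of similar expression. It describes how widely genes of similar expression moved and is not a replicate error. In pooled bulk RNA, fewer cells that express a gene and less RNA per cell cannot be told apart.

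Steps of single fragments among low values put the estimated depth, counted in 1e6 fragments, at 18.6 in CTRL, 21.8 with GDF15 and 17.8 with TGF-β. The members were then covered by an estimated 145 fragments (*Ankrd1* in CTRL) to 6595 fragments (*Amotl2* in GDF15). These estimates use the longest annotated coding transcript of each member, and each member has a shorter one as well. Where shorter forms were expressed, the fragments are overstated and the intervals too narrow. Exact 95% intervals from these estimates cover counting error only. The fibroblast label was checked by markers. All 10 fibroblast markers were present in every library, at 34.7 FPKM or more, with summed levels of 16437 to 18908 FPKM. The summed level of 5 epithelial markers was 0.268 to 0.735 FPKM and that of 4 endothelial markers 0.133 to 0.175 FPKM, and *Epcam* was listed at 0 in all 3 libraries. The 5 leukocyte markers summed to 5.98 to 7.52 FPKM, most of it from *Lyz2*.

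To show the sequence next to which these genes start, the 250 bases before each start site annotated in RefSeq (GRCm38.p6) were searched on both strands for the letters GGAATG, the core of the TEAD recognition element (MCAT). Windows were held for 8 members, and those of *Tead1* and *Tead4* were not analysed here. The letters were found in 7 of the 8 members and in 9 of their 11 windows, and *Tead2* was the member without them. Among all genes, 14.4% of 27025 genes and 12.6% of 32851 windows of the same length held them. The search was chosen after the sequences had been seen. A match describes letters in a window and is neither a bound site nor a cause of any value below. Each of the 10 distinct matches is printed with 12 bases on either side, 5′ to 3′ along the strand given, with the 6 matched bases in capitals.
Yap1 chr9:8004720-8004749 -: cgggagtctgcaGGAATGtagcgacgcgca
Wwtr1 chr3:57576029-57576058 -: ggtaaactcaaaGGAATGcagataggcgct
Tead3 chr17:28350697-28350726 +: agggggatggccGGAATGtacggaatgagc
Tead3 chr17:28350706-28350735 +: gccggaatgtacGGAATGagcccggccgga
Tead3 chr17:28350970-28350999 -: gacgacgagcgaGGAATGgggtgcgcggga
Vgll3 chr16:65815114-65815143 -: ggcagggtagccGGAATGtggggaggcggg
Vgll4 chr6:114969268-114969297 -: cgagtggggtggGGAATGctgagaaatgcc
Ankrd1 chr19:36119950-36119979 -: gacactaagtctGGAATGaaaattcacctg
Ankrd1 chr19:36120037-36120066 -: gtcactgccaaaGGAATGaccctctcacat
Amotl2 chr9:102717727-102717756 -: gctgctatgccaGGAATGtgagagtttcag
In 4 of the 10 matches, those of *Yap1*, *Vgll3* and *Amotl2* and 1 of *Tead3*, the matched bases were followed by T, and *Ankrd1* and *Tead3* held more than a single match. The longer window of *Vgll3*, the member that differed most between libraries, is shown whole, with the match in capitals as it reads on the gene's own strand.
Vgll3 window chr16:65814939-65815188 +: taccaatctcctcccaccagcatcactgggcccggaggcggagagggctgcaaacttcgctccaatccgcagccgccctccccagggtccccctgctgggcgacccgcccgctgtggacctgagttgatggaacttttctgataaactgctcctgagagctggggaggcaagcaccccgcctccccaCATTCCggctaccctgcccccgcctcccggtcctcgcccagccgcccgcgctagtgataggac
It shares 0 bases with exons of GENCODE M21. Other windows do overlap such exons, by all 250 bases for *Ankrd1*, by 136 for *Amotl2* and by 12 to 250 for those of *Tead3*, so their matches lie before the RefSeq start but may lie within a transcript of GENCODE. The letters TGANTCA of AP-1, where N is any base, and GTCTAGAC of SMAD proteins were each found in 0 of the 8 members. Among all windows they were present in 6.75% and 0.167%. The absence says only that these letters are not in these windows.

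**Figure D1:**
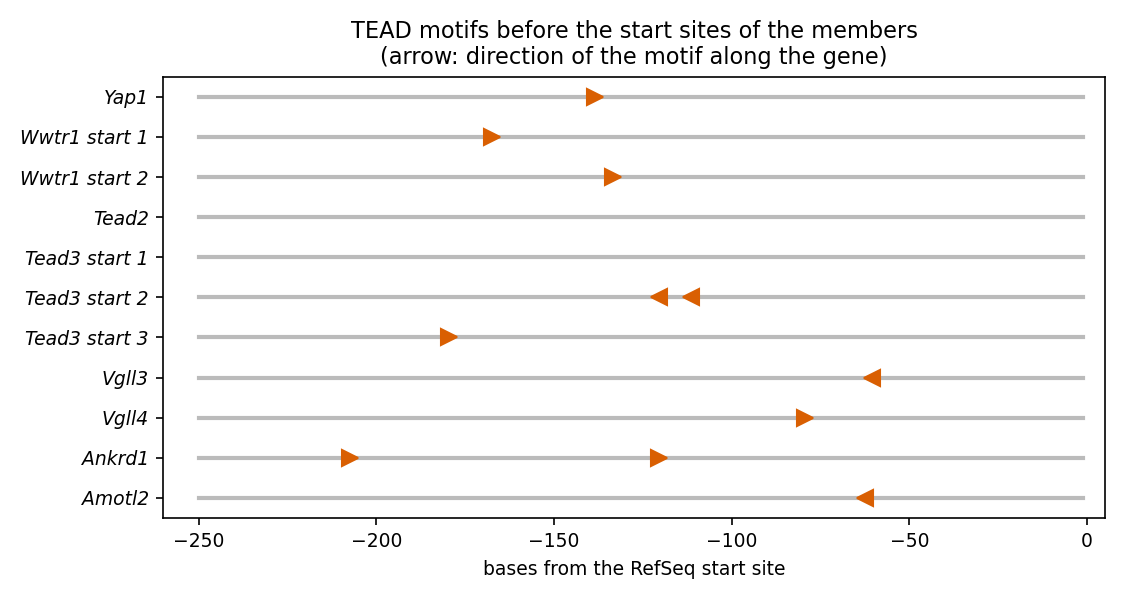
Positions of the letters GGAATG in the 250 bases before each RefSeq start site, with 1 line per window and an arrow for each match that points along its strand. In *Vgll3* and *Amotl2* the match lay 63 and 65 bases before the start site and ran against the gene, and the *Tead2* window has no arrow.

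All members were expressed in every library. Their levels ran from 4.27 FPKM (*Ankrd1*) to 50.6 FPKM (*Amotl2*) in CTRL, which are the 50.6th and 93.0th percentiles of all genes in that library. The order in CTRL, from high to low FPKM, was *Amotl2*, *Tead2*, *Wwtr1*, *Yap1*, *Tead1*, *Vgll3*, *Tead4*, *Tead3*, *Vgll4* and *Ankrd1*. Among the 9 pairs of neighbours in this order, only the intervals of *Vgll3* and *Tead4* overlapped. In GDF15, *Wwtr1* stood above *Tead2*, and *Vgll3* moved up from the sixth place to the fourth. The order in TGF-β was that of GDF15 except that *Ankrd1* stood above *Vgll4*. In both stimulated libraries the intervals of *Vgll3* and *Yap1* overlapped, as did those of *Vgll4* and *Ankrd1*. An overlap of intervals does not show that levels are equal.

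**Figure D2:**
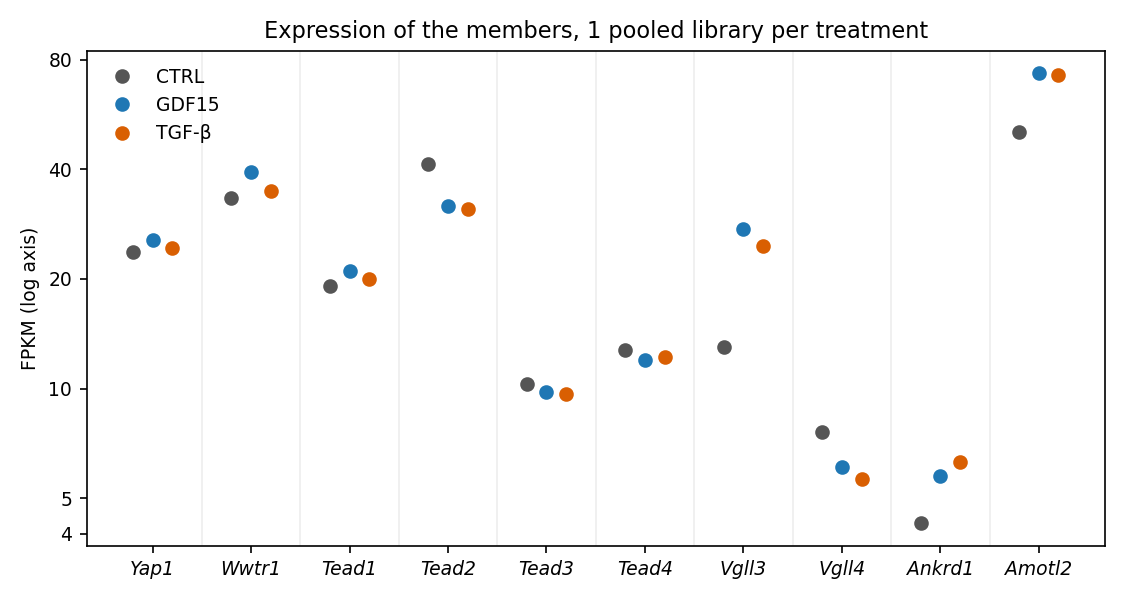
FPKM (log axis) of the 10 members in the 3 libraries, with 1 point per library and no error bar because each treatment has 1 pooled library. *Vgll3*, *Ankrd1* and *Amotl2* are lowest in CTRL by a visible margin, whereas *Tead2* and *Vgll4* are highest in CTRL.

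Against CTRL, GDF15 put 6 members higher and 4 lower, with a median change of 0.11 and a range of -0.37 to 1.02 on the log2(FPKM + 1) scale. With the length trend removed, GDF15 put 5 higher and 5 lower, with a median of 0.03, and TGF-β put 7 higher and 3 lower, with a median of 0.04. Only *Vgll3* passed 2-fold, 1 of 10 members beside 0.289% of all 15554 genes. TGF-β also put 6 members higher and 4 lower, with a median change of 0.04 and a range of -0.40 to 0.87. None of the 10 members passed 2-fold by TGF-β, beside 0.913% of all genes. Both comparisons use the same CTRL library. Among the 9226 genes averaging at least 1 FPKM, which include all 10 members, the median was -0.03 for GDF15 and -0.07 for TGF-β. With the members ranked by change, the 3 highest were *Vgll3*, *Amotl2* and *Ankrd1* and the 2 lowest were *Tead2* and *Vgll4* in either comparison.

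**Figure D3:**
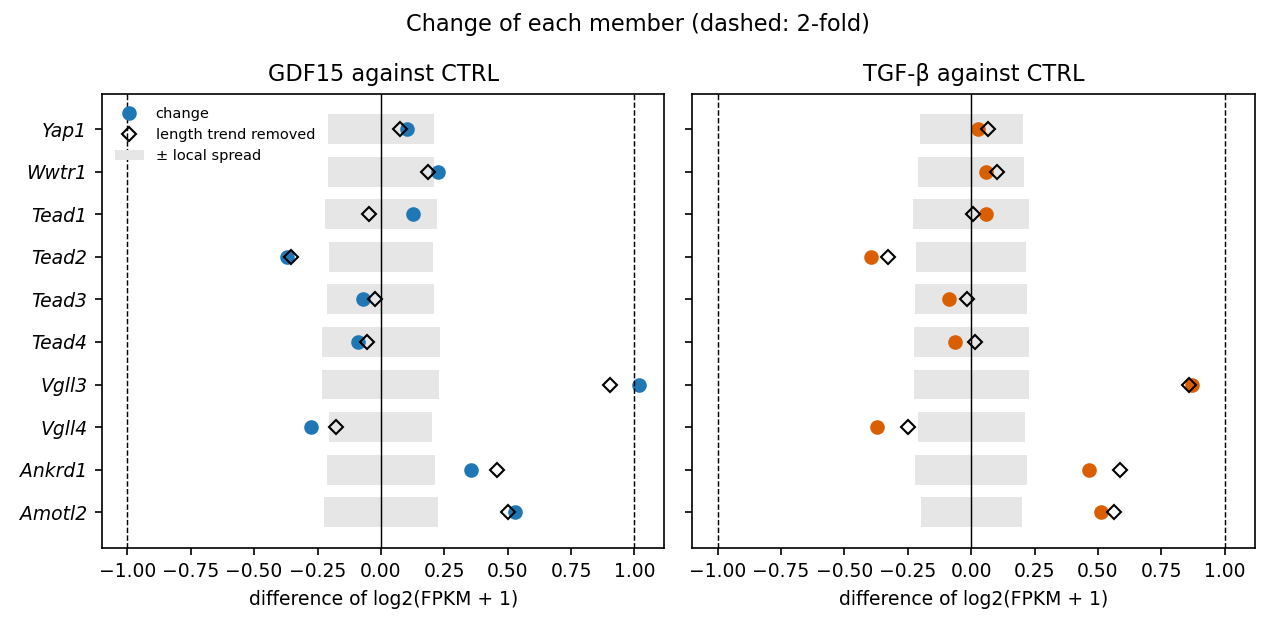
Change of each member as the difference of log2(FPKM + 1) between a stimulated library and CTRL, with filled circles for the values as deposited, open diamonds for values less the trend with transcript length, and grey bars for plus and minus 1 local spread. *Vgll3* lies beyond the dashed 2-fold line by GDF15 at 1.02 and inside it at 0.91 once the length trend is removed.

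*Vgll3* had the largest change of the members by either stimulus. It encodes a Vgll cofactor that binds TEAD factors through its Tondu domain and is expressed in mesenchymal cells. Its FPKM was 13.0 in CTRL, 27.4 with GDF15 and 24.7 with TGF-β. Both stimulated libraries stood well above CTRL. The change was 1.02 by GDF15, which after subtraction of the local median is 4.62 times the local spread, and 0.87 by TGF-β, or 4.15 times. These changes lay at the 99.7th and 98.8th percentiles of the changes of genes averaging at least 1 FPKM. As a ratio of FPKM, GDF15 was 2.10 times CTRL (counting interval 1.99 to 2.23) and TGF-β was 1.89 times CTRL (1.78 to 2.01). TGF-β was 0.900 times GDF15, and the interval of 0.858 to 0.943 lay below 1. On the log2 scale this difference was -0.15, but -0.04 with the length trend removed. The gene (ENSMUSG00000091243.2) lies on the plus strand of GRCm38 at chr16:65815257-65866368, and its longest coding transcript has 7009 bases.

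The call of *Vgll3* past 2-fold by GDF15 depended on how transcript length was treated. Among 5402 genes whose mean FPKM was at least 10, longer coding transcripts had higher changes by GDF15 (Spearman correlation 0.52), the trend by TGF-β was weaker (0.26), and that of TGF-β against GDF15 ran the other way (-0.36). These genes are not independent replicates, and each comparison is of a single pair of libraries. In the shortest of 10 groups of genes by length, with lengths from 371 bases, the median was -0.27 for GDF15 and -0.18 for TGF-β, and in the longest group it was 0.15 and 0.03. Less the running median over genes of similar length, the change of *Vgll3* was 0.91 by GDF15 and 0.86 by TGF-β. Less the trends with length and GC content, it was 0.78 and 0.75, still the highest value among the members in both comparisons. The part of the trend in the result was not tested beyond these values.

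**Figure D4:**
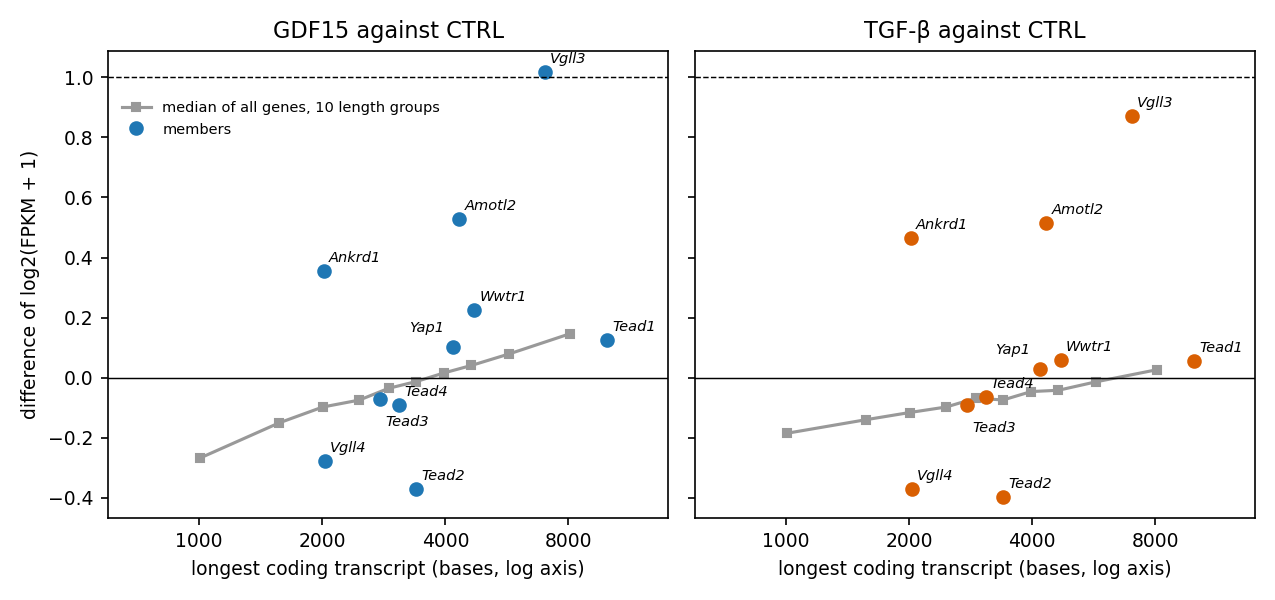
Change of each member (circles) against the length of its longest coding transcript on a log axis, with grey squares for the median change of all genes averaging at least 1 FPKM in 10 groups by length, drawn at the median length of each group. The grey line climbs from -0.27 to 0.15 by GDF15 and from -0.18 to 0.03 by TGF-β, and *Vgll3*, *Amotl2* and *Ankrd1* lie above it in both panels.

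*Vgll4*, whose product has 2 Tondu domains and competes with YAP for TEAD factors, was lower in both stimulated libraries. Its FPKM was 7.61 in CTRL, 6.11 with GDF15 and 5.66 with TGF-β. The changes were -0.28 and -0.37, which less the local median were -1.32 and -1.39 times the local spread. With length and GC trends removed they were -0.12 and -0.21. The ratio to CTRL was 0.802 (0.670 to 0.958) for GDF15 and 0.744 (0.611 to 0.900) for TGF-β. The intervals lay below 1 but rest on an estimated 260, 243 and 184 fragments. The FPKM of *Vgll3* was 1.71 times that of *Vgll4* in CTRL, 4.49 times with GDF15 and 4.36 times with TGF-β. The summed FPKM of both was 20.7, 33.5 and 30.3 in the same order. The other members of the family, *Vgll1* and *Vgll2*, were listed at 0 in all 3 libraries. *Vgll4* (ENSMUSG00000030315.15) lies on the minus strand at chr6:114860628-114969994.

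The coactivator genes differed little between libraries. *Yap1* had an FPKM of 23.8 in CTRL, 25.6 with GDF15 and 24.3 with TGF-β. *Wwtr1* had an FPKM of 33.4 in CTRL, 39.2 with GDF15 and 34.8 with TGF-β. Both genes were highest in GDF15 and lowest in CTRL. The change of *Yap1* was 0.10 by GDF15 and 0.03 by TGF-β, within the local spread of 0.21 and 0.20. The change of *Wwtr1* was 0.23 by GDF15, 1.33 times the local spread after subtraction of the local median, and 0.06 by TGF-β, 0.52 times. By GDF15 it was 0.10 with length and GC trends removed, and *Yap1* was then at 0.09. The ratio of GDF15 to CTRL was 1.08 (1.01 to 1.15) for *Yap1* and 1.18 (1.12 to 1.23) for *Wwtr1*, with both counting intervals above 1. Those of TGF-β to CTRL included 1 for both genes. In the direct comparison *Wwtr1* was 0.887 times as high in TGF-β as in GDF15 (0.845 to 0.932). *Wwtr1* provided 58.4% of the summed FPKM of both coactivators in CTRL, 60.5% with GDF15 and 58.9% with TGF-β, so the balance of TAZ to YAP mRNA was nearly the same in the 3 libraries. *Yap1* (ENSMUSG00000053110.13) lies on the minus strand at chr9:7931999-8004596, where 116 bases of its exons overlap *Gm20416* on the opposite strand, and *Wwtr1* (ENSMUSG00000027803.14) at chr3:57455649-57575910, also on the minus strand.

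The 4 TEAD genes encode the DNA-binding factors of the circuit, which recognise the same element. *Tead2*, the form known from embryonic and neural progenitor cells, was the most abundant of the 4 in every library. Its FPKM was 41.3 in CTRL, 31.8 with GDF15 and 31.2 with TGF-β. Both stimulated libraries stood below CTRL and close to each other. The changes were -0.37 by GDF15 and -0.40 by TGF-β, or -0.26 and -0.25 with length and GC trends removed. Less the local median they were -1.55 and -1.57 times the local spread, at percentiles 7.21 and 9.15 of the genes averaging at least 1 FPKM. As ratios to CTRL they were 0.769 (0.726 to 0.815) and 0.755 (0.709 to 0.802). The gene (ENSMUSG00000030796.17) lies on the plus strand at chr7:45215753-45233644, and 13 bases of its exons overlap *Cd37* on the opposite strand.

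The other TEAD genes stayed near their CTRL levels. *Tead1*, a broadly expressed form, had an FPKM of 19.2 in CTRL, 21.01 with GDF15 and 19.97 with TGF-β. *Tead3* was at 10.3, 9.78 and 9.66 FPKM in the same order. *Tead4*, known for its role in the trophectoderm, had an FPKM of 12.8, 11.97 and 12.2. All changes of these 3 genes lay between -0.09 and 0.13, within 1 local spread. Their signs depended on the processing in places, since *Tead1* was at -0.05 by GDF15 with the length trend removed, and *Tead3* and *Tead4* were at 0.10 and 0.04 by GDF15 with length and GC trends removed. The ratios to CTRL of *Tead3* (0.947 and 0.934) and *Tead4* (0.935 and 0.954) had counting intervals that included 1, as did that of *Tead1* by TGF-β (0.994 to 1.09), whereas that of *Tead1* by GDF15 did not (1.097, interval 1.05 to 1.15). The genes lie at chr7:112679318-112906807 on the plus strand (*Tead1*, ENSMUSG00000055320.17), chr17:28331671-28350817 on the minus strand (*Tead3*, ENSMUSG00000002249.21) and chr6:128224288-128300823 on the minus strand (*Tead4*, ENSMUSG00000030353.15).

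Summed over the family, TEAD expression was 83.6 FPKM in CTRL, 74.5 with GDF15 and 73.0 with TGF-β. *Tead2* made up 49.4% of this sum in CTRL, 42.6% with GDF15 and 42.7% with TGF-β. *Tead1* made up 22.9%, 28.2% and 27.4%, and the shares of *Tead3* and *Tead4* stayed between 12.4% and 16.7%. The summed coactivators *Yap1* and *Wwtr1* were at 0.683 times the TEAD sum in CTRL, 0.869 times with GDF15 and 0.809 times with TGF-β. The ratio of *Vgll3* to the TEAD sum was 0.156 in CTRL, 0.368 with GDF15 and 0.338 with TGF-β. Relative to TEAD mRNA, *Vgll3* mRNA differed more between the stimulated libraries and CTRL than coactivator mRNA did. These ratios describe mRNA only and carry no replicate error.

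*Amotl2* and *Ankrd1* are included as widely used target genes of YAP and TAZ. Activity of YAP, TAZ or TEAD was not measured, and whether the levels of these 2 genes follow it was not tested. *Amotl2* encodes a motin, a junctional scaffold that binds YAP and keeps it out of the nucleus, and was the most abundant member in every library. Its FPKM was 50.6 in CTRL, 73.4 with GDF15 and 72.7 with TGF-β. Both stimulated libraries stood above CTRL, and the difference between them (ratio of TGF-β to GDF15 0.991, interval 0.955 to 1.027) was within counting error. GDF15 gave a change of 0.53 and TGF-β a change of 0.51, which less the local median were 2.68 and 2.95 times the local spread, at the 98.4th and 96.8th percentiles. The ratio to CTRL was 1.45 (1.39 to 1.51) and 1.44 (1.38 to 1.498). Neither change passed 2-fold. *Amotl2* (ENSMUSG00000032531.15) lies on the plus strand at chr9:102716672-102733418.

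*Ankrd1* encodes an ankyrin repeat protein of the nucleus and the sarcomere that responds to stretch. It was the least abundant member in CTRL, with an FPKM of 4.27, and had 5.75 with GDF15 and 6.28 with TGF-β. CTRL was the lowest library and TGF-β the highest. GDF15 gave a change of 0.36 and TGF-β a change of 0.46, which less the local median were 1.54 and 2.28 times the local spread. The ratio to CTRL was 1.35 (1.09 to 1.67) and 1.47 (1.18 to 1.83), from an estimated 145, 228 and 203 fragments, and that of TGF-β to GDF15 was 1.09 (0.897 to 1.32), which is within counting error. With the length trend removed the changes were 0.46 and 0.59. Its longest coding transcript has 2020 bases, the lowest length among the members. The gene (ENSMUSG00000024803.9) lies on the minus strand at chr19:36111961-36120099.

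Compared directly, TGF-β and GDF15 gave similar levels of all 10 members. None differed past 2-fold, beside 0.103% of all genes. TGF-β was higher than GDF15 for *Ankrd1* and *Tead4* and lower for the other 8 members, with changes from -0.17 (*Wwtr1*) to 0.11 (*Ankrd1*). The sign of this difference was not stable for *Tead1*, *Tead2*, *Tead3* and *Amotl2*, which turned when the length trend was removed. The counting intervals of the FPKM ratio lay below 1 for *Wwtr1*, *Tead1* and *Vgll3*, and included 1 for the other 7 members.

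The kinases that restrain YAP and TAZ were listed as the core Hippo module, namely the MST kinases *Stk3* and *Stk4*, their scaffold *Sav1*, the LATS kinases *Lats1* and *Lats2* and the MOB adaptors *Mob1a* and *Mob1b*. None of the 7 passed 2-fold, which at shares of 0.289% and 0.913% of all genes says little about 7 genes. By GDF15, 6 were higher and 1 lower than CTRL, with a median change of 0.33, beside 4097 higher and 5129 lower among the 9226 genes averaging at least 1 FPKM. By TGF-β, 6 were higher and 1 lower, with a median of 0.14, beside 3429 higher and 5797 lower. With the length trend removed the medians were 0.24 and 0.19, and with length and GC trends removed they were 0.14 and 0.14, so the higher median by GDF15 was not kept. *Mob1a*, the most abundant of them, was at 35.9 FPKM in CTRL, 46.8 with GDF15 and 39.7 with TGF-β. *Mob1b* had the highest change, 0.41 by GDF15 and 0.29 by TGF-β, from 9.37 to 12.8 and 11.7 FPKM, but only 0.10 by GDF15 with length and GC trends removed. *Lats2*, itself listed as a target of YAP and TAZ, had an FPKM of 12.4, 16.2 and 13.6, a change of 0.35 by GDF15 and 0.12 by TGF-β. *Stk3* had an FPKM of 30.4, 38.5 and 31.7, and *Lats1* of 12.3, 15.0 and 14.8, a change of 0.26 by GDF15 that was 0.06 with length and GC trends removed. *Sav1* was at 22.8, 25.2 and 25.7. *Stk4* was the exception to the direction, with 8.83 in CTRL, 8.40 with GDF15 and 7.86 with TGF-β.

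Upstream and binding regulators of the pathway moved in both directions. Of the 16 listed genes 15 were in the table, *Fat1* was not analysed here, and 13 averaged at least 1 FPKM. None of the 15 passed 2-fold, which at shares of 0.289% of all genes by GDF15 and 0.913% by TGF-β says little about them. Among the 9226 genes averaging at least 1 FPKM, GDF15 put 4097 higher and 5129 lower, and TGF-β 3429 higher and 5797 lower. Of the 13, GDF15 put 7 higher and 6 lower (median change 0.01, or -0.05 with 4 higher and 8 lower when the length trend was removed) and TGF-β put 4 higher and 9 lower (median -0.13). *Amotl1*, a motin like *Amotl2*, was the most abundant and had the highest change, with an FPKM of 24.6 in CTRL, 36.4 with GDF15 and 34.5 with TGF-β and changes of 0.54 and 0.47. The founding motin gene *Amot* did not follow, with an FPKM of 5.94, 5.59 and 4.27 and changes of -0.07 and -0.40. *Wtip*, a LIM protein of the Ajuba family that binds LATS kinases, had an FPKM of 10.4, 7.90 and 7.80 and changes of -0.36 and -0.37, or -0.16 and -0.15 with length and GC trends removed. *Frmd6*, a FERM protein, was at 20.4, 19.9 and 16.3, a change of -0.31 by TGF-β. The other high changes were those of *Wwc2*, a scaffold of the KIBRA family (0.34 and 0.25), and of the kinase gene *Taok1* (0.33 and 0.21). By GDF15 they were at 0.17 and 0.03 with length and GC trends removed. The other low changes by GDF15 were those of *Taok2* (-0.18) and *Nf2* (-0.15), the gene of merlin.

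The 14-3-3 genes, whose products retain phosphorylated YAP and TAZ in the cytoplasm, differed little. None of the 7 passed 2-fold, which at shares of 0.289% of all genes by GDF15 and 0.913% by TGF-β says little about them. Of the 7, 6 averaged at least 1 FPKM. Of these, 5 were higher and 1 lower than CTRL in each comparison, with median changes of 0.09 by GDF15 and 0.09 by TGF-β. With the length trend removed all 6 were higher, *Ywhaq* by only 0.0021 and 0.02, and the medians were 0.14 and 0.17. *Ywhaz* stood highest at 237 FPKM in CTRL, 256 with GDF15 and 255 with TGF-β. *Ywhah* had the highest change, 0.16 and 0.26, from 79.95 FPKM to 89.4 and 95.9, and *Ywhaq* the lowest, -0.08 and -0.09. With length and GC trends removed *Ywhah* was at 0.30 and 0.41. *Ywhae* was at 202, 215 and 230 FPKM, *Ywhab* at 120, 129 and 125, and *Ywhag* at 93.1, 95.96 and 98.8.

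**Figure D5:**
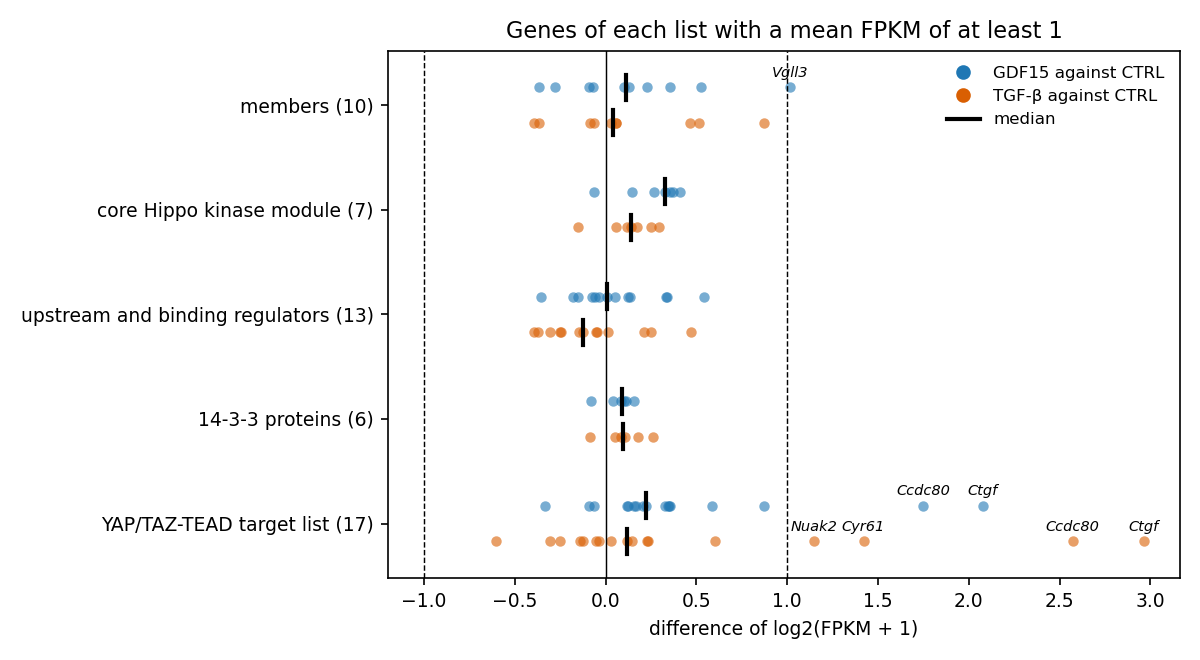
Change of each gene averaging at least 1 FPKM in the members and 4 lists of the Hippo pathway, with 1 point per gene and a black bar for the median of the list. Points beyond the dashed 2-fold lines are named, and outside the members they belong to the target list alone.

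Of 20 genes listed as targets of YAP, TAZ and TEAD outside the members, GDF15 put 15 higher and 5 lower than CTRL, with a median change of 0.20, and 2 passed 2-fold, beside 0.289% of all genes. TGF-β put 10 higher, 9 lower and 1 at 0, with a median of 0.01, and 4 passed 2-fold, beside 0.913% of all genes. By GDF15 the count was 4 with a pseudocount of 0.1 or none, where *Cyr61* was added and 1 gene under 1 FPKM in every library. That gene was *Igfbp3* with 0.1, higher by GDF15 (1.28), and *Nt5e* with none, lower by GDF15 (-1.81). The counts over all genes were then 315 of 15554 with a pseudocount of 0.1 and 589 of 11081 genes above 0 in all 3 libraries with none. Over the 17 targets averaging at least 1 FPKM the medians were 0.22 and 0.12. The list was thus uneven, with a few large changes and many near 0. The connective tissue growth factor gene *Ctgf* had an FPKM of 9.03 in CTRL, 41.3 with GDF15 and 77.3 with TGF-β, changes of 2.08 and 2.96. *Ccdc80*, a matrix protein gene, had 11.5, 40.9 and 73.3, changes of 1.75 and 2.57. Both belong to the genes that the study picked from these same libraries by fold change, so their direction is not independent evidence for the list. *Cyr61*, a CCN protein gene like *Ctgf*, was at 3.37, 7.005 and 10.7 (0.87 and 1.42, the first 1.01 to 1.06 and past 2-fold with a pseudocount of 0.1 or none or with length and GC trends removed), and *Nuak2*, a kinase gene, at 4.08, 6.62 and 10.2 (0.59 and 1.15). These 4 genes, which are named because they passed 2-fold by TGF-β, were higher in TGF-β than in GDF15 by 0.55 to 0.89. Of all 20 targets, 8 were higher in TGF-β than in GDF15 and 12 lower, with a median of -0.10.

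Further down the list, *Gadd45a*, a growth arrest gene, was at 61.7, 77.7 and 94.1 FPKM (0.33 and 0.60). The receptor kinase gene *Axl* was the most abundant target, with 134, 157 and 148 FPKM (0.22 and 0.14). Among targets averaging at least 1 FPKM, the lowest changes were those of *Fjx1*, at 4.42, 3.30 and 2.57 FPKM (-0.33 and -0.60), and *Asap1*, at 101, 94.5 and 81.2 (-0.09 and -0.31). Next came *Foxf2* by GDF15 (-0.07) and the tissue factor gene *F3* by TGF-β, with 98.8, 110 and 82.7 FPKM (0.15 and -0.25). With length and GC trends removed, the changes by GDF15 were 0.13 for *Foxf2*, whose sign turned, -0.18 for *Fjx1* and 0.53 for *Gadd45a*. *Igfbp3* was listed at 0 in CTRL and TGF-β. Windows were held for 13 of the 20 targets, and the letters GGAATG were found in 4 of them. Changes among targets therefore covered both directions, and *Ankrd1* and *Amotl2*, at 0.36 to 0.53, lay between the 4 largest and the median of the list.

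The genes whose pair of changes lay nearest to that of *Vgll3*, by Euclidean distance over the 2 comparisons with CTRL among 9225 other genes averaging at least 1 FPKM, were *Hspb2*, *Svep1*, *Pcdh18*, *Fhl2* and *Arhgap29*. The distances were 0.0540, 0.168, 0.207, 0.210 and 0.248 on the log2 scale. *Hspb2*, a small heat shock protein gene, had an FPKM of 0.336 in CTRL, 1.80 with GDF15 and 1.42 with TGF-β, far below *Vgll3*. It averaged at least 1 FPKM only through the 2 stimulated libraries. At such low levels the pseudocount shrinks a change, and as a ratio of FPKM *Hspb2* rose more than *Vgll3*. Its nearness therefore holds only for log2(FPKM + 1). *Svep1* had 15.0, 28.2 and 26.5, and *Fhl2*, a LIM protein gene, 32.0, 56.8 and 58.1. *Pcdh18*, a protocadherin gene, had 5.89, 13.3 and 13.5, and *Arhgap29* 8.70, 18.7 and 20.1. The likeness is over 2 values that share a CTRL library.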

How the data were processed

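RNA-seq of 3 NIH3T3 libraries, 1 per treatment, was analysed. The authors prepared stranded mRNA libraries, read them as single ends and deposited FPKM calculated by Cufflinks for protein-coding genes reviewed in UniProt. The submitters' processing notes name TopHat 1.3.2, Bowtie 0.12.9, Cufflinks 2.0.2 and the build mm10. The annotation and the use of strand in counting are not given in the sources used here. Groups came from the sample titles and stimulation labels. Columns were assigned by the treatment in their headers, since the cell line part of the headers counts upward from NIH3T3 and was taken as a filling error of a spreadsheet.

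The change of a gene is the difference of log2(FPKM + 1), with a pseudocount of 1. Genes over 1 in absolute change were counted. With 1 library per treatment no test was made. The local spread is the median absolute deviation, scaled by 1.4826, of the 501 genes closest in mean expression. Length and GC content came from GENCODE M21 (GRCm38), where 14725 of 15554 rows were found under their symbol and 737 under an older one. Depth was estimated from genes with a single coding transcript, with lengths shortened by 199 bases. Of 385 to 398 such genes at 0.5 to 3.5 fragments, 72.2% to 73.9% lay within 0.1 of a whole fragment. Intervals are exact, binomial for ratios and Poisson for levels. Scripts were tested on simulated data.

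Members and gene lists were chosen with earlier results of these data known. Named are all members and, of each list, genes past 2-fold, the 3 highest and 3 lowest changes in each comparison among genes averaging at least 1 FPKM, and the most abundant gene, with the 5 genes nearest in pattern to the member of largest change by TGF-β. *Gadd45a*, *Igfbp3*, *Nt5e*, *Epcam*, *Lyz2* and the motif search were chosen after their values were seen. The alternatives were pseudocounts of 0.5, 0.1 and none, a minimum mean FPKM of 1, upper quartile scaling and removal of the trend with expression or with length. Removal of length and GC trends together was added after seeing the data. Calculations used pandas 2.3.3, scipy 1.17.1 and numpy 2.4.6 under Python 3.11.15, and figures were drawn with matplotlib 3.10.9.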

Additional observations from a re-analysis of the deposited data

How the results depend on the processing

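No paired analysis was possible because only 1 pooled library stands for each treatment, and no replicate could be left out. The number of members past 2-fold by GDF15 was 0 in place of 1 with the length trend removed, and 0 with length and GC trends removed. The median change of the target list by TGF-β was 0.12 with a minimum mean FPKM of 1, 0.15 with the length trend removed and 0.15 with length and GC trends removed, in place of 0.01. All 3 alternatives leave out 3 genes near 0. Of 240 values of single members recomputed in this way, 239 moved by less than the local spread. They include the values with a minimum mean FPKM of 1, which could not move because every member averages more. The other was *Vgll3* by GDF15 (0.78 with length and GC trends removed), and its changes ranged from 0.78 to 1.07 by GDF15 and from 0.75 to 0.94 by TGF-β. In 20 values the sign turned, for *Tead1*, *Tead2*, *Tead3*, *Tead4* or *Amotl2*, and none of these changes was past 2-fold. Of 714 values of other list genes, 691 moved by less than the local spread and 22 changed sign. Targets past 2-fold by GDF15 numbered 4 in place of 2 with a pseudocount of 0.1 or none and 3 with length and GC trends removed, with *Cyr61* gained each time, and the median of the core Hippo module by GDF15 was 0.14 in place of 0.33 with length and GC trends removed. The pseudocount moved the count over all genes, from 45 to 315 by GDF15 and from 142 to 489 by TGF-β at 0.1, but the counts of members stayed at 1 and 0. Pooled libraries do not show the spread between cultures, and counting error limits *Vgll4* and *Ankrd1*.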
